A study of Mus musculus with 18 samples.

Results

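The pleural mesothelium is the single-layered sheet of cells that covers the outside of the lung. A set of 7 genes that mark it (Wt1, Msln, Upk3b, Upk1b, Lrrn4, Gpm6a and Muc16) was followed by gene symbol through RNA-Seq of whole mouse lungs at 14.5 dpc (days post coitus). Of these, 6 had values among the 23420 genes of each table, and the expression of Muc16, a large cell surface mucin, was not analysed here. The lungs came from 3 lines in which Rptor (a subunit of mTORC1), Tfam (needed to keep and transcribe the mitochondrial genome) or Cox10 (needed to build complex IV of the respiratory chain) was deleted by ShhCre. The deficient embryos were Rptorf/f; ShhCre/+, Tfamf/f; ShhCre/+ and Cox10f/f; ShhCre/+, and their control littermates were Rptorf/+; ShhCre/+, Tfamf/+; ShhCre/+ and Cox10f/+; ShhCre/+. Each of the 6 groups had 3 lungs, 18 in all. Every embryo, controls included, carried Cre inserted into 1 Shh allele, and controls still carried 1 floxed allele. ShhCre is active in the lung epithelium, so that the mesothelium was not the tissue targeted, and the comparison asks how its genes stood in lungs whose epithelium lacked one of these functions.

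Mesothelial cells arise from the mesoderm around the lung bud. In the embryonic lung they are known as a source of signals, among them FGF9 and retinoic acid, that act on the mesenchyme beneath them and through it on branching of the epithelium, and cells of the layer can enter the mesenchyme. Of the genes described here, Wt1 encodes a zinc finger transcription factor that mesothelia of several organs share. Upk3b and Upk1b encode uroplakins, membrane proteins first known from the bladder, and Msln encodes mesothelin, a surface glycoprotein anchored to the membrane by a lipid. Lrrn4 encodes a membrane protein with leucine-rich repeats, and Gpm6a encodes a membrane glycoprotein that is also abundant in neurons.

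Values are normalised read counts, that is, the reads of a gene over the sample's size factor. They summed to between 27727202 and 29611064 per lung, with 17671 to 17910 genes above 0. A difference is given as deficient minus control on the log2(value + 1) scale, with its SE, and was tested with limma in each line. The adjusted p (Benjamini-Hochberg) covers all genes tested in the line, with 0.05 as the threshold. The reads of the deleted genes in whole lung did not fall beyond the spread: Rptor had 2197 to 2298 in controls and 1986 to 2442 in Rptor-deficient lungs (adjusted p = 0.570). Tfam had a limma adjusted p of 0.472 in its line, and Cox10 one of 0.979 in its own. All cells of the lung outside the epithelium contribute to these values and a gene's count does not single out the floxed exons, so they provide no check of the genotype labels.

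The 6 measured genes lie on 5 chromosomes. On GRCm38 (mm10) with GENCODE M21, Wt1 spans chr2:105126529-105173616 on the plus strand and Lrrn4 chr2:132868305-132880891 on the minus strand. Upk3b spans chr5:136038496-136046487 (plus), Gpm6a chr8:54954843-55060871 (plus), Upk1b chr16:38773184-38800328 (minus) and Msln chr17:25748613-25754378 (minus). Gpm6a overlaps 5 unverified transcripts of its own strand, with which it could share reads, and the other 5 overlap no annotated gene. Because most of the members moved together in one of the lines, start regions taken from RefSeq (GRCm38.p6, 250 bases before to 50 after a start site) were read for a few motifs. The set of start regions used held an entry for Lrrn4, Upk3b, Gpm6a (with a pair of start sites) and Muc16. It held none for Wt1, Msln and Upk1b, whose promoters were therefore not read. The letters GGAATG, which transcription factors of the TEAD family bind, stood on either strand in 3 of these 5 promoters (2 of Gpm6a, 1 of each other gene, Muc16 included), and in 14.7% of all 32817 promoters of this length. These 3 are shown with the letters, or their complement CATTCC, in capitals:
Lrrn4, chr2:132880813-132881112, minus strand: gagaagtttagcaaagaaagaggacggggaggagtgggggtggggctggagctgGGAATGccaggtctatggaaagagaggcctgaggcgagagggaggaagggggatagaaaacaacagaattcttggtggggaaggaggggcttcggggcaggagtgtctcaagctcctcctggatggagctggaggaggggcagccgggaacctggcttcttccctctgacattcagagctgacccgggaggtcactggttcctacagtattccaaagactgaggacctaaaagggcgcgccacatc
Upk3b, chr5:136038246-136038545, plus strand: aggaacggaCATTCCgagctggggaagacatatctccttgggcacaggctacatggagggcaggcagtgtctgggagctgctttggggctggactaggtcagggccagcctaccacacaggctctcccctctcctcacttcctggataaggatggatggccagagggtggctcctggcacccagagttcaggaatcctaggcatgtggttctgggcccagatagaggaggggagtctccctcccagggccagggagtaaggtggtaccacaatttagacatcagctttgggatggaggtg
Gpm6a, upstream start site, chr8:54779184-54779483, plus strand: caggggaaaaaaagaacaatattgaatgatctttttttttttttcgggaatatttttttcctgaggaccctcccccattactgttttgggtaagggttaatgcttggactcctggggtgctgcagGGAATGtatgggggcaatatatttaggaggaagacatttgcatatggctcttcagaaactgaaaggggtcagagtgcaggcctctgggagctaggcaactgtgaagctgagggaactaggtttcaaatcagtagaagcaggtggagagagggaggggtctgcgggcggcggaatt
The first base of the match lay at -196 from the start site in Lrrn4, -241 in Upk3b and -125 in Gpm6a. This Gpm6a window lies far upstream of the gene span given above. The Gpm6a window next to that span (chr8:54954478-54954777) has no such match, and which start site these lungs use was not tested. The letters GTGGGAG, the core of a site for WT1 itself, were in none of the 5 promoters and in 9.73% of all promoters. TATAAA was in 1 of the 5 (13.6% of all promoters), and CCAAT in none (37.4% of all). The TATAAA match lay in the window of the downstream start site of Gpm6a, on the other strand with its first base at -211. Such matches describe the letters of these windows and do not show binding.

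In Rptor-deficient lungs, 5 of the 6 measured mesothelial genes rose and none fell: Wt1, Lrrn4, Upk3b, Upk1b and Gpm6a. With replicate numbers as a block, Msln fell as well (limma adjusted p = 0.0296), so that all 6 passed, in a fit in which 18.6% of all genes rose and 20.0% fell. Without the block, 16.6% of the 14940 genes tested rose and 18.2% fell. The members' median difference was 0.86 on the log2 scale, against 0.0083 for all genes tested. In 4 of the 6, the deficient lungs lay above all controls, as was so for 24.3% of all genes. Such a rise in bulk tissue cannot tell more mesothelial cells from more RNA per cell, or either from a smaller share of other tissues.

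Wt1 had 373, 343 and 501 normalised reads in the control lungs of the Rptor line and 847, 769 and 927 in the Rptor-deficient lungs. The groups were well apart, with means of 406 ± 84.2 and 848 ± 78.7 (SD, n = 3). This was a 2.11-fold difference (1.08 on the log2 scale, SE 0.14, limma adjusted p = 0.000967). Lrrn4 had 570, 486 and 659 reads in controls and 1253, 1111 and 1340 in deficient lungs. Again the groups did not overlap, and the difference was 1.12 (SE 0.12, limma adjusted p = 0.000398), the largest of the 6 genes.

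Among the uroplakins, Upk3b had 3184, 2515 and 3555 reads in control and 4617, 5116 and 5220 in Rptor-deficient lungs. It rose by 0.70 on the log2 scale (SE 0.12, limma adjusted p = 0.00252) without overlap. Upk1b had 378, 198 and 238 reads in controls and 539, 606 and 377 in deficient lungs, so that the highest control and the lowest deficient lung were level. Its difference of 0.93 (SE 0.25) passed the threshold (limma adjusted p = 0.0206), but not without control replicate 2, control replicate 3 or deficient replicate 2 (adjusted p = 0.0659 to 0.0789). Gpm6a had 597, 527 and 546 reads in controls and 859, 963 and 1096 in deficient lungs. All deficient lungs were higher, by 0.80 (SE 0.10, limma adjusted p = 0.000801).

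Msln went the other way at a far lower level. It had 28.9, 38.0 and 43.8 reads in controls and 10.2, 21.8 and 28.7 in Rptor-deficient lungs. The deficient lungs lay just below all controls, as was so for 26.0% of all genes, and the difference of -0.93 (SE 0.37) did not pass (limma adjusted p = 0.0856). With the replicate number as a block it did (adjusted p = 0.0296), as it did without deficient replicate 3 (-1.23, adjusted p = 0.0425). Without deficient replicate 1 the difference shrank to -0.52 (adjusted p = 0.180), and with any of the 6 lungs left out the adjusted p was at most 0.218. Per kilobase of exon, the mean level of Msln in the control groups was 7.05 to 24.2 normalised reads, the lowest of the set. Upk3b was the highest at 874 to 1243 reads per kilobase. The other 4 lay between, from 65.5 for Wt1 in controls of the Rptor line to 309 for Lrrn4 in controls of the Tfam line.

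**Figure D1:**
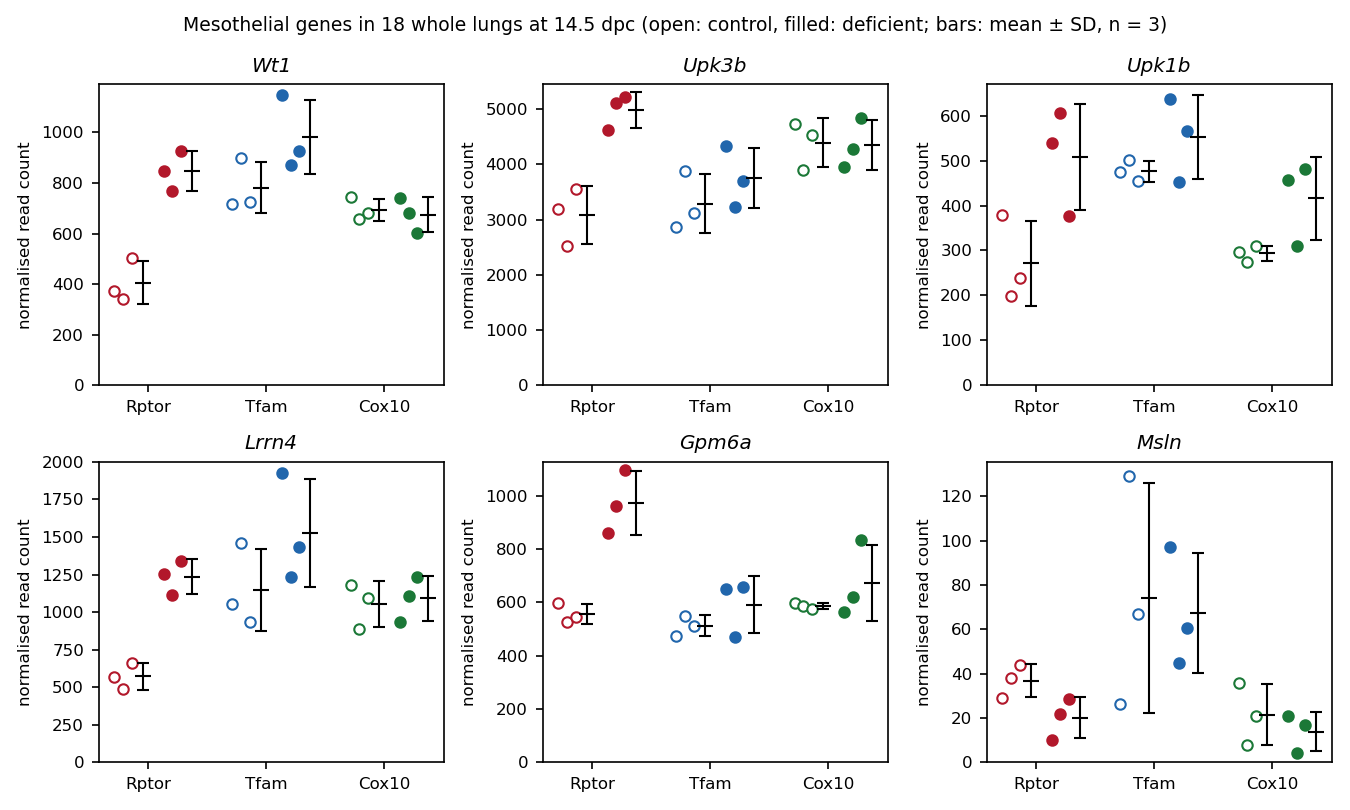
Normalised read counts (vertical axis, from 0) of the 6 measured mesothelial genes in each of 18 lungs, by line, with open circles for controls, filled circles for deficient lungs and bars for mean ± SD (n = 3). In the Rptor line the filled circles lie above all open ones for Wt1, Upk3b, Lrrn4 and Gpm6a and below them for Msln, while Upk1b overlaps.

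None of the 6 genes passed the threshold in Tfam-deficient lungs by limma, where 4.66% of 15053 genes were called. At an unadjusted p below 0.05, 2 of the 6 were higher (8.29% of all genes), and the median difference was 0.20 on the log2 scale against 0.00098 for all genes. Wt1 had 718, 897 and 726 reads in control and 1148, 871 and 927 in Tfam-deficient lungs. The groups overlapped, with a difference of 0.33 (95% interval 0.075 to 0.58, limma adjusted p = 0.157). Lrrn4 had 1052, 1458 and 934 reads in controls and 1928, 1231 and 1430 in deficient lungs, and the difference was 0.41 (0.031 to 0.80, limma adjusted p = 0.247). For Upk3b, Upk1b and Gpm6a the differences were 0.19, 0.20 and 0.19, with adjusted p-values of 0.450, 0.414 and 0.466 in limma. Their 95% intervals reached from -0.073 to 0.46, -0.055 to 0.45 and -0.080 to 0.47. With each lung left out in turn, the difference ran from 0.085 to 0.32 for Upk3b, 0.089 to 0.34 for Upk1b, 0.11 to 0.35 for Gpm6a, 0.23 to 0.60 for Lrrn4 and 0.21 to 0.43 for Wt1, and none passed. Msln was most uneven in this line, with 26.4, 129 and 67.0 reads in controls and 97.3, 44.7 and 60.6 in deficient lungs. No direction could be read for it (0.062, 95% interval -0.97 to 1.09).

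In Cox10-deficient lungs, too, none of the 6 passed by limma, where 0.475% of 14937 genes were called, and 1 of the 6 was higher at an unadjusted p below 0.05 (6.40% of all genes). Wt1 had 743, 657 and 680 reads in controls and 741, 683 and 601 in deficient lungs. The difference was -0.041 with a 95% interval of -0.26 to 0.17. Upk3b (-0.011, interval -0.23 to 0.21) and Lrrn4 (0.052, interval -0.25 to 0.35) were as close to 0, and Gpm6a stood at 0.18 (-0.13 to 0.49). With each lung left out in turn, the difference of Gpm6a ran from 0.014 to 0.29. Upk1b was the gene with the low unadjusted p. It had 296, 275 and 310 reads in controls and 456, 311 and 481 in Cox10-deficient lungs, where the lowest deficient lung was barely above the highest control. Its difference was 0.48 (SE 0.16, limma adjusted p = 0.311), and 10.6% of all genes likewise had every deficient lung above every control. Msln had 35.7, 8.07 and 21.0 reads in controls and 21.0, 4.02 and 16.8 in deficient lungs, which is too few and too uneven to place it (-0.63, interval -2.21 to 0.94).

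**Figure D2:**
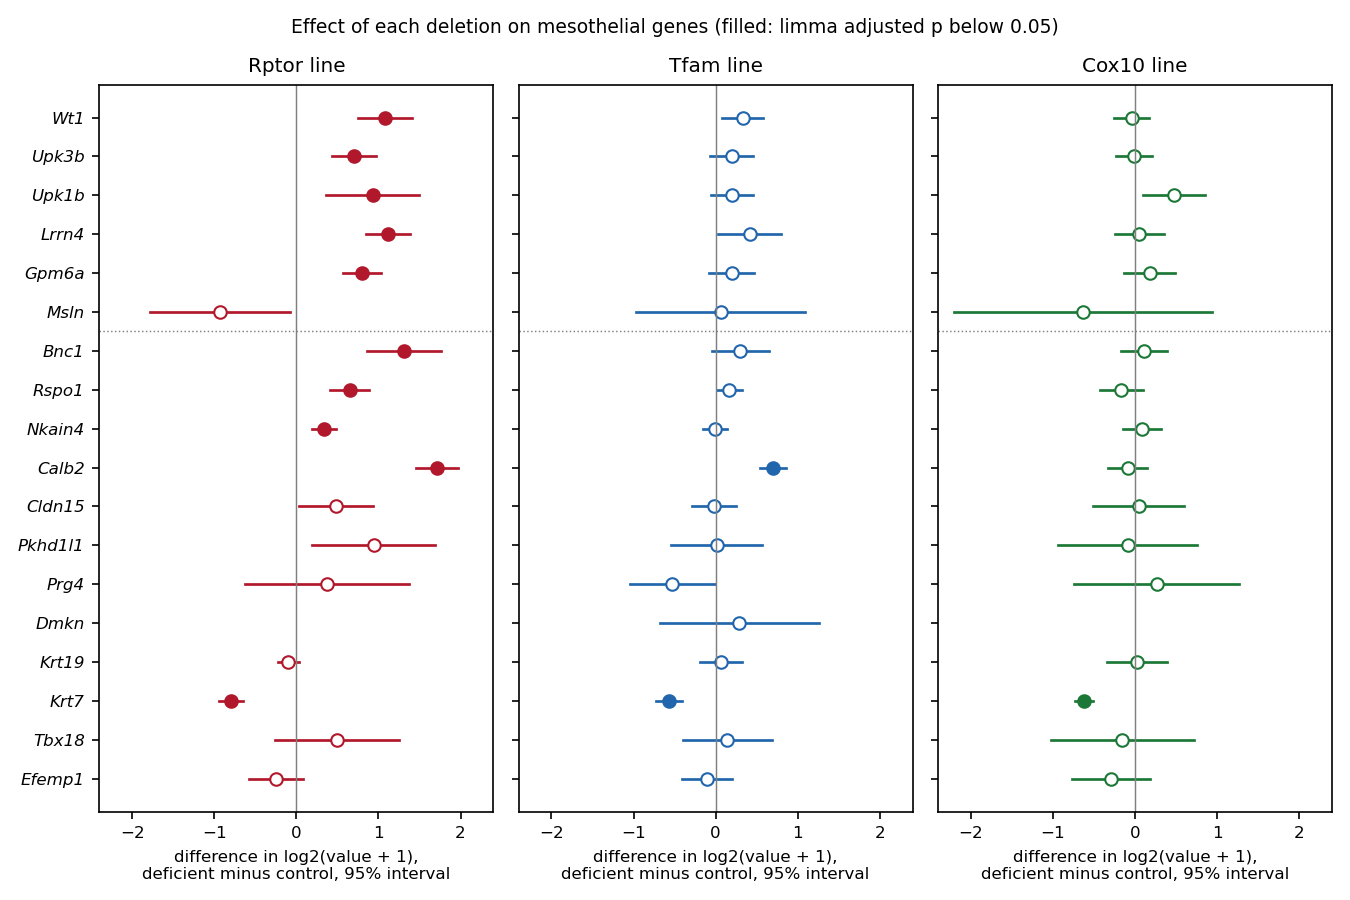
Difference in log2(value + 1), deficient minus control, with its 95% interval for the 6 measured genes (above the dotted line) and 12 further mesothelial genes (below) in each line (3 lungs per group), filled where the limma adjusted p was below 0.05 (Dmkn was tested in the Tfam line only). The filled points of the upper block are all in the Rptor panel, and Krt7 lies below 0 in all 3 panels.

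The differences between lines were tested as such, in a model of all 18 lungs and 14550 genes. The difference of Wt1 in the Rptor line exceeded that in the Tfam line by 0.75 (SE 0.19, limma adjusted p = 0.0194) and that in the Cox10 line by 1.12 (adjusted p = 0.00170). Compared with the Cox10 line, the difference of Lrrn4 in the Rptor line was larger by 1.06 (SE 0.25, limma adjusted p = 0.0129) and that of Upk3b by 0.72 (adjusted p = 0.0269). Thus 1 of the 6 genes differed between the Rptor and Tfam lines, where 4.82% of all genes had a higher effect in the former, and 3 of the 6 between the Rptor and Cox10 lines, where 3.27% did. The other contrasts missed the threshold, several of them narrowly. For Gpm6a the gap was 0.60 to the Tfam line and 0.62 to the Cox10 line (limma adjusted p = 0.0535 and 0.0613). Lrrn4 and Upk3b differed from the Tfam line by 0.70 and 0.51 (adjusted p = 0.0736 and 0.0872). The gaps for Upk1b were 0.73 and 0.45 (limma adjusted p = 0.127 and 0.400), and those for Msln -0.99 and -0.30 (adjusted p = 0.488 and 0.876). The call for Wt1 against the Tfam line was lost in 4 of the 18 fits that each left out a lung: without Rptor control replicate 2, Tfam control replicate 2, or Tfam-deficient replicate 2 or 3 (adjusted p = 0.0529 to 0.0630). That for Upk3b was lost in 6 of 18: without Rptor control replicate 2, Rptor-deficient replicate 3, Cox10 control replicate 1 or 3, or Cox10-deficient replicate 1 or 2 (adjusted p = 0.0548 to 0.0777). Between the Tfam and Cox10 lines none of the 6 effects differed by limma at an adjusted p below 0.05, as 0.0550% of all genes did, and none had an unadjusted p below 0.05.

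The control lungs of the lines were not level for these genes. The highest control value of Wt1 in the Rptor line was 501, below the lowest of the other 15 lungs (601), and for Lrrn4 it was 659 against 886. Of the 14550 genes tested, 2.45% had all Rptor controls below all other lungs. The Rptor-deficient lungs lay within the range of the Tfam line for both genes, while for Wt1 all 3, and for Lrrn4 2 of the 3, lay above the highest lung of the Cox10 line (743 and 1233). Upk3b, Upk1b, Gpm6a and Msln had no such gap. Of the further mesothelial and signalling genes described next, Bnc1 (238 against 253), Rspo1 (639 against 761), Fgfr1 (3293 against 4147) and Etv4 (873 against 901) had it too. The tables were normalised separately, although scaling factors computed over all 18 lungs differed only from 0.972 to 1.03, and litter, background and line cannot be told apart here, so no test was made between the controls.

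The members were set beside 12 further genes known from mesothelium. Like the members and the other lists, these 12 were chosen with earlier results of these data known. Of the 11 tested in the Rptor line, 4 rose and 1 fell (16.6% and 18.2% of all genes did), with a median difference of 0.48. Calb2 (calretinin, a calcium-binding protein used as a mesothelial marker) had 545, 447 and 461 reads in controls and 1841, 1467 and 1478 in Rptor-deficient lungs, which was the largest rise of the list (1.72, SE 0.11, limma adjusted p = 4.41e-05). Bnc1, which encodes the zinc finger protein basonuclin 1, had 225, 170 and 238 reads in controls and 670, 401 and 519 in deficient lungs. It rose by 1.31 (SE 0.20, limma adjusted p = 0.00169), with no overlap. Rspo1, a secreted enhancer of WNT signalling, rose by 0.65 (adjusted p = 0.00237) and Nkain4, a membrane protein that interacts with a sodium pump subunit, by 0.33 (limma adjusted p = 0.00514). Krt7, a keratin of simple epithelia that mesothelium also makes, fell from 2825, 2628 and 2703 reads in controls to 1466, 1581 and 1649 (-0.80, limma adjusted p = 0.000105). Its sister keratin gene Krt19 was at -0.096 (adjusted p = 0.220). Cldn15, a claudin, and Pkhd1l1, a large membrane protein, differed by 0.48 and 0.94 and passed once replicate numbers were blocked (limma adjusted p = 0.0884 and 0.0550 unblocked, 0.0176 and 0.0128 blocked). Cldn15 also passed without control replicate 1 (adjusted p = 0.0447) and Pkhd1l1 without control replicate 3 or deficient replicate 1 (0.00496 and 0.0463). Tbx18, a transcription factor gene, was at 0.49 (adjusted p = 0.278) and passed without control replicate 3 (0.0188). Prg4 and Efemp1 did not pass, and Dmkn was too low to test.

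In Tfam-deficient lungs, 1 of the 12 further genes rose and 1 fell (median 0.038), where 2.03% and 2.63% of all genes did. Calb2 went from 590, 527 and 572 reads in controls to 888, 945 and 912 (0.70, SE 0.072, limma adjusted p = 0.000277), and Krt7 was lower by -0.57 (adjusted p = 0.00105). In Cox10-deficient lungs, Krt7 alone passed among the 11 tested (-0.62, limma adjusted p = 0.00420; 0.335% of all genes fell), the median was -0.090, and Calb2 was at -0.090 (adjusted p = 0.716). The call for Krt7 in this line was lost without control replicate 1 or 3 (adjusted p = 0.0630 and 0.0802). Krt7 was lower in every deficient lung than in every control of its line in all 3 lines, as was so of 26.0% of all genes for Rptor, 11.8% for Tfam and 10.8% for Cox10. Loss of Rptor had an effect on Calb2 that exceeded the effect of Tfam loss by 1.02 (limma adjusted p = 0.000456) and of Cox10 loss by 1.81 (adjusted p = 2.25e-06). Bnc1 (adjusted p = 0.0219 and 0.00963) and Rspo1 (0.0450 and 0.00267) differed from both lines in limma as well.

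Genes for signals that the mesothelium sends or that its neighbours receive were followed as a list of 10. In the Rptor line, 6 rose and 2 fell (median 0.48), against the same 16.6% and 18.2%. Among the senders, Aldh1a2, which makes retinoic acid, had 2139, 1769 and 2121 reads in controls and 3704, 3284 and 3268 in Rptor-deficient lungs (0.77, SE 0.087, limma adjusted p = 0.000494), clear of each other. Wnt2b, a WNT ligand, rose by 0.93 (adjusted p = 0.0463), with 1802 reads in deficient replicate 1 and 781 and 848 in the other lungs against 442 to 749 in controls, and it did not pass without control replicate 2 or 3 (adjusted p = 0.158 and 0.116). Without deficient replicate 1 its difference was 0.55 (adjusted p = 0.0499). Fgf9 had 297, 247 and 256 reads in controls and 472, 328 and 308 in deficient lungs, and its difference of 0.45 did not pass (limma adjusted p = 0.0672), except without deficient replicate 3 (adjusted p = 0.0435) or with replicate numbers as a block (0.0173). Without deficient replicate 1 it was 0.26 (adjusted p = 0.122). Among the receivers, Fgfr1, an FGF receptor of the mesenchyme, rose by 0.72 (adjusted p = 0.000392), and Fgfr2, whose epithelial form receives FGF10, fell by 0.32 on the log2 scale (adjusted p = 0.00434). The FGF target genes were split, since Spry2 and Etv4 rose by 0.51 and 0.35 while Etv5 fell by 1.07 (limma adjusted p = 0.00347, 0.0230 and 1.46e-05). The call for Etv4 was lost without control replicate 1 or 2 or deficient replicate 2 or 3 (adjusted p = 0.0719 to 0.0844). Crabp1, which binds retinoic acid in the cell, rose by 0.67 (adjusted p = 0.00590), and Rarb, a retinoic acid receptor gene, was at 0.20 (adjusted p = 0.304).

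In the Tfam line 2 of these 10 genes rose (Spry2, Etv4) and 3 fell (Fgfr2, Etv5, Crabp1), beside 2.03% and 2.63% of all genes, and in the Cox10 line none passed by limma (4 at an unadjusted p below 0.05, as did 13.0% of all genes). Without a lung, Fgfr2 missed the threshold in the Tfam line when control replicate 1 or any deficient replicate was left out (adjusted p = 0.0536 to 0.102), and Crabp1 without control replicate 2 or deficient replicate 2 or 3 (0.0558 to 0.0777). In the Cox10 line Etv5 passed without deficient replicate 1 or 3 (adjusted p = 0.0412 and 0.0243), Spry2 without replicate 1 (0.0471) and Etv4 without replicate 3 (0.0448). Aldh1a2 was at 0.23 (limma adjusted p = 0.0734) in the Tfam line and at -0.16 (adjusted p = 0.502) in the Cox10 line. The rise in the Rptor line exceeded both (limma adjusted p = 0.0144 and 0.000338). The same was so of Fgfr1 (adjusted p = 0.000504 and 0.00155), and the fall of Etv5 was deeper in the Rptor line than in both others (0.0167 and 0.0165).

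Genes of the other cell types of the lung moved in the Rptor-deficient lungs as well. All 8 epithelial genes fell (median -1.23). Of 8 mesenchymal genes 5 rose (median 0.73) and of 6 endothelial genes 5 rose (median 0.38), while all 5 proliferation genes fell (median -0.35), in a line where 16.6% of all genes rose and 18.2% fell. The mean log2 level of the 5 members other than Msln, which was set aside after its low values were seen, stood at -3.58 ± 0.17 relative to the mesenchymal genes in controls and at -3.37 ± 0.12 in Rptor-deficient lungs (SD, n = 3). That difference of 0.21 left the groups overlapping, and with Msln included it was -0.097. Relative to the endothelial genes the 5 members were higher by 0.56, and relative to the epithelial genes by 2.20, each with all deficient lungs above all controls. With Msln included, these differences were 0.25 and 1.89, again with all deficient lungs above all controls. In the Tfam and Cox10 lines the 5 members stood 0.57 and 0.54 higher relative to the epithelial genes without overlap, while with Msln included they stood 0.53 and 0.42 higher and the groups overlapped. Relative to the mesenchymal genes the 5 stood at 0.12 and -0.042, and relative to the endothelial genes at 0.15 and -0.15. How far the share of each tissue in the lung set the members' values was not tested.

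**Figure D3:**
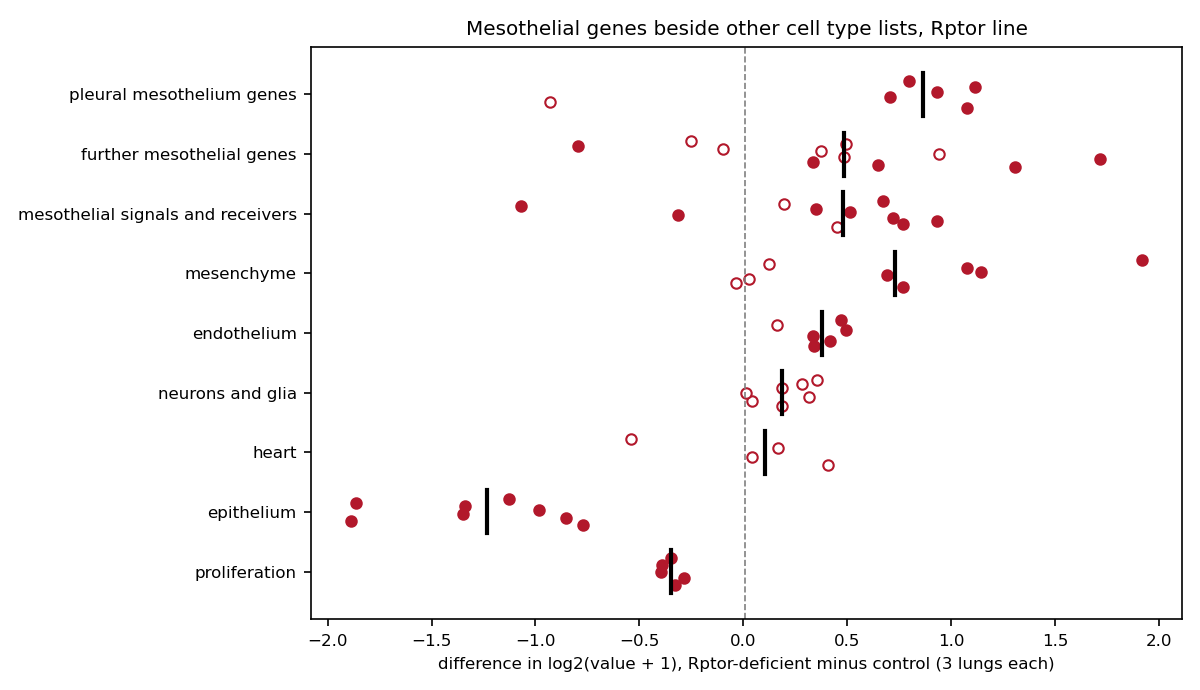
Difference in log2(value + 1) between Rptor-deficient and control lungs (horizontal axis, 3 lungs per group) for each tested gene of 9 lists, filled where the limma adjusted p was below 0.05, with a black bar at the median of a list and a dashed line at the median of all genes tested. The mesothelial genes (median 0.86) lie near the mesenchymal genes (0.73), and all epithelial genes lie below 0.

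Wt1, Msln, Tbx18 and Upk3b are also made by the epicardium, the mesothelium of the heart, so a list of 6 heart genes was read in the same lungs. Their summed level was 1283 to 3908 normalised reads in control and 1175 to 2328 in deficient lungs of the Rptor line, where none of the 4 tested passed by limma (16.6% of all genes rose and 18.2% fell) or had an unadjusted p below 0.05, and 1 gene of the list was at 0 in a control lung. Control replicate 3, with 3908, was also the highest control for Wt1, Lrrn4, Upk3b and Msln. Among the Rptor-deficient lungs it was otherwise, since replicate 2, with 2328, had the lowest Wt1 and Lrrn4. In the Tfam line the sum was 5389, 13771 and 9310 reads in controls and 24896, 9160 and 9357 in deficient lungs, and 1 of the 6 genes, Nppa, rose (median 0.54), in a line where 2.03% of all genes did. The lungs with the most heart reads of their group, control replicate 2 and deficient replicate 1, were also those with the most reads of Wt1, Lrrn4, Upk3b and Msln. In the Cox10 line the sum was 6452, 813 and 3935 in controls and 6414, 876 and 914 in deficient lungs, and Msln was highest and lowest in the same lungs of each group. Among the controls of this line the lung with the most heart reads was also the highest, and that with the fewest the lowest, for Wt1, Upk3b and Lrrn4. Deficient replicate 1, with 6414, had the highest Wt1 (741) but the lowest Upk3b (3949) and Lrrn4 (937) of its group. With the mean log2 level of the heart genes as a covariate, the same number of members passed in the Rptor line (5), with Wt1 at 1.10 (limma adjusted p = 0.00133), and the difference of Wt1 in the Tfam line was 0.12 (adjusted p = 0.597). In that line the covariate also lowered the differences of Lrrn4 to 0.12, Upk1b to 0.066 and Gpm6a to 0.054, and turned those of Upk3b and Msln to -0.036 and -0.86 (adjusted p from 0.172 to 0.894). The covariate includes Nppa, which rose by 2.29 in that line (limma adjusted p = 0.000273), so it is not free of the genotype difference. Whether these drops come from heart tissue was not tested. The ranges of the heart sums overlapped between control and deficient lungs in each line.

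**Figure D4:**
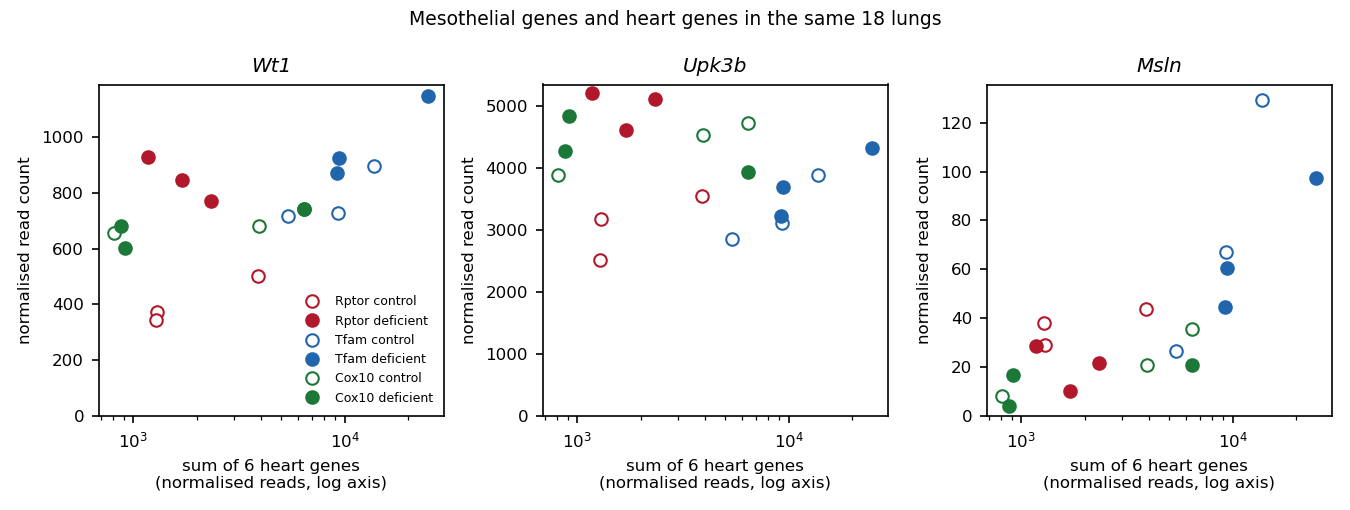
Normalised read counts of Wt1, Upk3b and Msln (vertical axes, from 0) against the summed normalised reads of 6 heart genes (horizontal axis, log scale) in the 18 lungs, open for control and filled for deficient. Msln is highest in the 2 Tfam lungs with the most heart reads (13771 and 24896). Wt1 separates the Rptor groups, whose heart sums overlap (1283 to 3908 in controls, 1175 to 2328 in deficient lungs).

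Since neurons express Gpm6a, genes of neurons and glia were also read. None of 7 passed in the Rptor line by limma, at an unadjusted p below 0.05 either, and their sum ranged from 316 to 463 reads in control and 413 to 484 in Rptor-deficient lungs. Of the liver genes 1 of 4 tested rose, of the skeletal muscle genes 1 of 3 fell, and of the genes of the oesophagus and stratified epithelium 1 of 4 fell in that line, where 16.6% of all genes rose and 18.2% fell.

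The members varied together to unequal degrees. With the mean of each group of 3 lungs subtracted, so that the genotype difference was removed, Pearson's r over the 18 lungs was 0.88 between Upk3b and Lrrn4, 0.69 between Wt1 and Lrrn4 and 0.65 between Wt1 and Upk3b. It was -0.0035 between Wt1 and Upk1b and 0.11 between Wt1 and Gpm6a. With the mean of the heart genes, r was 0.70 for Msln, 0.64 for Wt1, 0.42 for Upk3b, 0.34 for Lrrn4, 0.27 for Upk1b and -0.15 for Gpm6a. These are descriptions, since lungs of a table share their scaling and dissection is shared by all genes of a lung. Over 14544 other genes, those most like the mean of the members around the line means were Megf6 (r = 0.96), Angptl7 (0.94), Tmem151a (0.94), Pygm (0.93) and Dapk1 (0.93). Around the group means they were Nlrp10 (0.92), Cpz (0.92), Sync (0.92), Megf6 (0.91) and Fbln2 (0.91). Bnc1, the nearest of the further mesothelial genes around the line means, ranked 120 (r = 0.86), behind the mesenchymal collagen genes Col1a1 (rank 17) and Col1a2 (rank 26) and behind Lum (rank 42), a matrix proteoglycan gene of the mesenchyme. Around the group means both lists were spread widely. The further mesothelial genes ran from Pkhd1l1 (rank 116, r = 0.74) and Efemp1 (rank 129, r = 0.73) through Bnc1 (rank 668, r = 0.56) to Calb2 (rank 9783, r = -0.19), and the mesenchymal genes from Col1a1 (rank 41, r = 0.80) to Foxf1 (rank 14242, r = -0.66).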

How the data were processed

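RNA was measured in whole lungs of 18 mouse embryos, 3 in each of 6 groups taken from the sample titles. The authors deposited, for each line in a table of its own, a normalised signal, in which each gene's read count was divided by a size factor. All values were whole multiples of a step of 0.978 to 1.02 within 0.05 of a read. The submitters' processing notes name Trim Galore, HISAT2, featureCounts, DESeq2 and mm10, without versions. The log2 fold changes and p-values in the tables were not used. Genes with at least 10 in at least 3 of 6 samples were tested in limma 3.58.1 (R 4.3.3) on log2(value + 1) with eBayes and a mean-variance trend, two-sided, and this scale understates changes of low genes. Differences between lines were fitted on all 18 samples. In the gene column, 27 symbols had become spreadsheet dates and were kept as such. No pair of samples was a duplicate library, as the chi-square per gene was at least 4.12. Per the study's methods, its statistics took mutants of several litters together. The litter of each lung is not given in the sources used here.

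Replicate numbers are not said to mark littermates. Deviations of same-numbered samples correlated by 0.221, 0.330 and 0.259 in the Rptor line, so the fit with the number as a block is given where it changed a call. Unless a block is named, the values given are from fits without it.

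The 6 members with values were described, as were the genes of the 2 mesothelial lists, the other lists by counts, and the 5 genes most like the members by each measure. The members and lists were chosen with earlier results of these data known. Settings tried were the scaling, pseudocount, filter, threshold, block, joint fit, a heart covariate and leaving out each sample. Gene positions come from GENCODE M21 (GRCm38) and promoters from RefSeq (GRCm38.p6).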

Additional observations from a re-analysis of the deposited data

Results flagged for a closer look

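The difference between deficient and control lungs was not the same in all lines for 3 of the mesothelial genes, by limma's test over all 18 lungs. For Wt1 the difference in the Rptor line exceeded that in the Tfam line by 0.75 on the log2 scale and that in the Cox10 line by 1.12. For Upk3b it exceeded that in the Cox10 line by 0.72, and for Lrrn4 by 1.06. The Rptor controls lay below all other lungs for Wt1 and Lrrn4. Mean Wt1 was 848 reads in Rptor-deficient, 982 in Tfam-deficient and 675 in Cox10-deficient lungs. For Lrrn4 the means were 1235, 1530 and 1092. In groups of 3, single lungs far from the others were not looked for.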

How the results depend on the processing

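In the Rptor line 5 members passed with each other scaling, pseudocount, filter and joint fit and with the heart covariate. The replicate block gave 6 (Msln added), an adjusted p below 0.01 gave 4 and below 0.1 gave 6, and leaving out a lung gave 4 to 6. In the Tfam and Cox10 lines the count stayed 0 throughout. Between the Rptor and Tfam lines, where 1 member differed, the count was 2 with a mean of at least 50 as filter and 3 with the heart covariate. That covariate was chosen after seeing the data and includes Nppa, which rose in the Tfam line. The count was 0 at an adjusted p below 0.01 and 4 below 0.1, and it ranged from 0 to 4 with a lung left out. Between the Rptor and Cox10 lines, where 3 differed, it was 1 at an adjusted p below 0.01 and 2 to 4 with a lung left out. Krt7, the further gene called in the Cox10 line, was lost without control replicate 1 or 3 (0 to 1 genes).

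With the replicate number as a block, the counts were 6, 0 and 0 members in the Rptor, Tfam and Cox10 lines, 1, 3 and 0 members differing between lines (Rptor and Tfam, Rptor and Cox10, Tfam and Cox10) and 7, 2 and 1 further genes. Among the signalling genes it added Fgf9 in the Rptor line, Aldh1a2 in the Tfam line (adjusted p = 0.0470) and Etv4 in the Cox10 line (0.0497). Besides these and Msln, Cldn15 and Pkhd1l1 in the Rptor line it changed no call of a member or of a gene of the 2 mesothelial lists. Same-numbered lungs correlated by -0.312, -0.207 and 0.151 in the Tfam line and 0.447, 0.202 and 0.0488 in the Cox10 line, which does not pair them, and in neither line did every lung correlate best with its own number.

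Some differences that had not passed changed sign, and the cause was not tested. With the heart covariate, Msln was at -0.86 and Upk3b at -0.036 in the Tfam line, and Msln at -0.027 between the Tfam and Cox10 lines. With a lung left out, Msln in the Tfam line ranged from -0.53 to 0.59. In the Cox10 line Msln ranged from -1.18 to 0.026, Wt1 from -0.11 to 0.040, Upk3b from -0.095 to 0.057 and Lrrn4 from -0.067 to 0.16. The difference in effect ranged for Msln from -0.95 to 0.25 between the Rptor and Cox10 lines and for Gpm6a from -0.10 to 0.18 between the Tfam and Cox10 lines. The count tests planned in edgeR and DESeq2 were not run. Msln had 4.02 to 129 reads per lung, the fewest of the members.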
